A study of Mus musculus with 6 samples.

Results

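The genes described here encode the conjugating enzymes of phase II metabolism, which attach a polar group to drugs, toxins, hormones and reactive lipids so that these can leave the cell. They were taken from the deposited expression table by symbol, as every glutathione S-transferase (Gst of the alpha, kappa, mu, omega, pi, theta and zeta families, and the membrane-bound Mgst genes), UDP-glucuronosyltransferase (Ugt) and sulfotransferase (Sult). The rule found 59 genes among the 18849 in the table, of which 25 are glutathione enzymes, 21 are Ugt genes and 13 are Sult genes. Messenger RNA was measured in 6 kidney tissue libraries of male C57BL/6 mice, 8 weeks old, after 14 days of unilateral ureteral obstruction (UUO), in which a tied ureter damages the tubules and scars the kidney. The knockout group (3 libraries) carried loxP-flanked c-Abl (Abl1) alleles and Ksp-Cre, and the floxed group (3 libraries) carried the loxP-flanked alleles without Cre. The genotype label of the floxed libraries reads WT, while the design text calls them floxed, and that of the knockout libraries reads c-Abl knockdown. Ksp-Cre is driven by the promoter of the kidney cadherin Cdh16, which is known to be most active in the distal nephron and collecting duct. All kidneys were obstructed, so each value sets 1 obstructed genotype against the other. Nothing in the labels says that each library came from its own mouse, so the p-values measure the spread between these libraries, which may be technical.

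Glutathione S-transferases join the tripeptide glutathione to reactive carbons. UDP-glucuronosyltransferases transfer a sugar acid from UDP-glucuronate, and sulfotransferases transfer sulfate from its activated form, PAPS. In the kidney many of these enzymes are known from the proximal tubule, which also takes up their substrates from blood and exports the conjugates into urine.

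Values are FPKM, fragments scaled to gene length and library depth, so levels can be compared between genes. Fold changes are ratios of mean FPKM, and log2 fold changes are knockout minus floxed on log2(FPKM + 1) values. The added 1 shrinks the log2 fold change of members with few FPKM. Abl1 read 10.46, 14.45 and 12.91 FPKM in knockout replicates 1, 2 and 3, against 18.16, 15.93 and 17.33 FPKM in floxed replicates 1, 2 and 3 (exact two-sided permutation p = 0.1, the smallest possible with 3 against 3 libraries). Knockout replicate 3 lay toward the floxed libraries: on the first principal component the knockout libraries stood at 54.1, 37.4 and -7.48 and the floxed libraries at -29.0, -26.2 and -28.8. For the conjugating enzymes, results are therefore given with and without it where that changes a call. That library was singled out because of where it lay, so calls made without it are no added support. The spacing of low FPKM values implied 15850000 to 18000000 fragments per library, an approximate figure.

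Of the 59 members, 39 had at least 1 FPKM in at least 3 libraries and were tested, 36 of them with at least 1 FPKM in all 6 libraries. Gsta1, Ugt1a10 and Ugt1a2 reached 1 FPKM in 1 floxed library each and in 3, 3 and 2 knockout libraries, so their passing leaned on the group in which they were high. The 20 members left untested never exceeded 2.26 FPKM. They were 10 Ugt, 6 Sult and 4 glutathione genes, led by Mgst2 (2.26 FPKM in 1 floxed library), Gsto2 (1.26 FPKM at most), Ugt1a6a (0.98 FPKM at most), Ugt1a1, the bilirubin enzyme (0.96 FPKM at most), the oestrogen sulfotransferase Sult1e1 (0.82 FPKM at most) and Ugt2a3 (0.69 FPKM at most). Sult1c1 and Sult2a3 were listed at 0 in every library.

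The upstream sequences of a few members are shown first, among them the near-identical ones of Ugt2b37 and Ugt2b38. Ugt2b37 was lower in every knockout library, while Ugt2b38 overlapped between the groups. Whether the upstream sequence bears on these values was not tested. The stretches are from RefSeq on GRCm38.p6, a later build than the mm9 of the expression table, and are printed 5′ to 3′ on the strand of the gene. The 250 bases before the start of Ugt2b37 (chr5:87254789-87255038, minus strand) and of Ugt2b38 (chr5:87424204-87424453, minus strand) are given whole. The 100 bases of Gsta3 (chr1:21240425-21240524, plus strand) surround 1 motif match. Capitals mark the 14 aligned bases that differ between Ugt2b37 and Ugt2b38, and a match to the antioxidant response element in Gsta3.
Ugt2b37: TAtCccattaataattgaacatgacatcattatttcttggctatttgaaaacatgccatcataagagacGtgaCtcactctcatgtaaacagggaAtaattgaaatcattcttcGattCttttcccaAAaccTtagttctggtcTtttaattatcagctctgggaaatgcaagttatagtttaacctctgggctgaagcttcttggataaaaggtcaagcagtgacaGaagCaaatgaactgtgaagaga
Ugt2b38: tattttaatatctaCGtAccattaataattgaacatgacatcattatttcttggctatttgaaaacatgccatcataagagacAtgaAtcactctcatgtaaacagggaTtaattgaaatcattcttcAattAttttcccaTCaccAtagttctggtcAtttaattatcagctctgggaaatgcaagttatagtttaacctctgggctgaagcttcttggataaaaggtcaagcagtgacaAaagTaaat
Gsta3: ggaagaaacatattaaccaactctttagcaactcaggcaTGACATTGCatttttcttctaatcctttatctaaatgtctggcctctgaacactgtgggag

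Aligned to each other, the upstream stretches of Ugt2b37 and Ugt2b38 shared 222 of 236 aligned bases (94.1%), and that of their relative Ugt2b5 shared 87.6% with Ugt2b37 and 88.3% with Ugt2b38. The antioxidant response element, bound by NRF2, was searched as TGACNNNGC on both strands with no mismatch. Of the members with a RefSeq promoter of 300 bases, it was found in 4 of 23 glutathione genes (Gsta3, Gstm5, Gstm7 and Mgst1), in 0 of 19 Ugt and 0 of 12 Sult genes. A gene can have more than 1 promoter. Counted by promoter, the element lay in 4 of 66 member promoters and in 12.4% of all 32851 promoters. A direct repeat of AGGTCA around any 1 base, searched on both strands with up to 2 mismatches, lay in Ugt2b36 and Sult2a8. These were 2 of 66 member promoters, against 3.86% of all promoters. Gsta4, Gstt2, Sult4a1, Ugt1a6b and Ugt3a2 had no entry. Of the 4 genes with the element, the groups did not overlap for Gsta3 and overlapped for Gstm5, Gstm7 and Mgst1. A match describes the letters and is no evidence of binding, and a longer or other window was not searched.

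No member passed the limma test after adjustment over all genes, against 0.0672% of all 13390 genes tested (9 genes). The lowest adjusted p among members was 0.0547, for Gsta2. At an unadjusted limma p under 0.05, 12 of the 39 tested members were higher in the knockout libraries, against 8.38% of all genes, and 5 were lower, against 16.3% of all genes. The knockout libraries lay wholly above the floxed ones for 11 members, against 10.0% of all genes, and wholly below for 4, against 21.7%. By class, 9 of 21 glutathione genes, 2 of 11 Ugt genes and 1 of 7 Sult genes were higher at that unadjusted p, and 1, 2 and 2 were lower. Without Gsta1, Ugt1a10 and Ugt1a2, left out after their values were seen, 10 of 36 members were higher and 5 lower, with 8 of 20, 1 of 9 and 1 of 7 higher in the 3 classes. The median log2 fold change was 0.40 for the glutathione class, 0.96 for the Ugt class and -0.17 for the Sult class, against -0.12 for all genes. These medians cover tested members: without the filter on low values the Ugt median was 0.06 and the Sult median -0.01, and with a mean of at least 5 FPKM the Sult median was 0.69. Without knockout replicate 1 the glutathione median was 0.17. No test compared the classes. Scaling the libraries by median ratios moved the median of all genes to 0.02, and among the 3327 genes with an unadjusted p under 0.05 then found, 1808 were higher, against 1122 of 3303 as deposited (1636 of 3243 with quantile scaling). Under median-ratio scaling 9, 2 and 2 members of the glutathione, Ugt and Sult classes were higher and 1, 2 and 1 were lower. Without knockout replicate 3, 14 members passed the limma test over all genes as higher, against 9.02% of genes, and 3 as lower, against 15.4%. The 14 were 9 glutathione, 3 Ugt and 2 Sult genes, and the 3 lower ones were Gstm6, Ugt2b37 and Sult5a1.

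**Figure D1:**
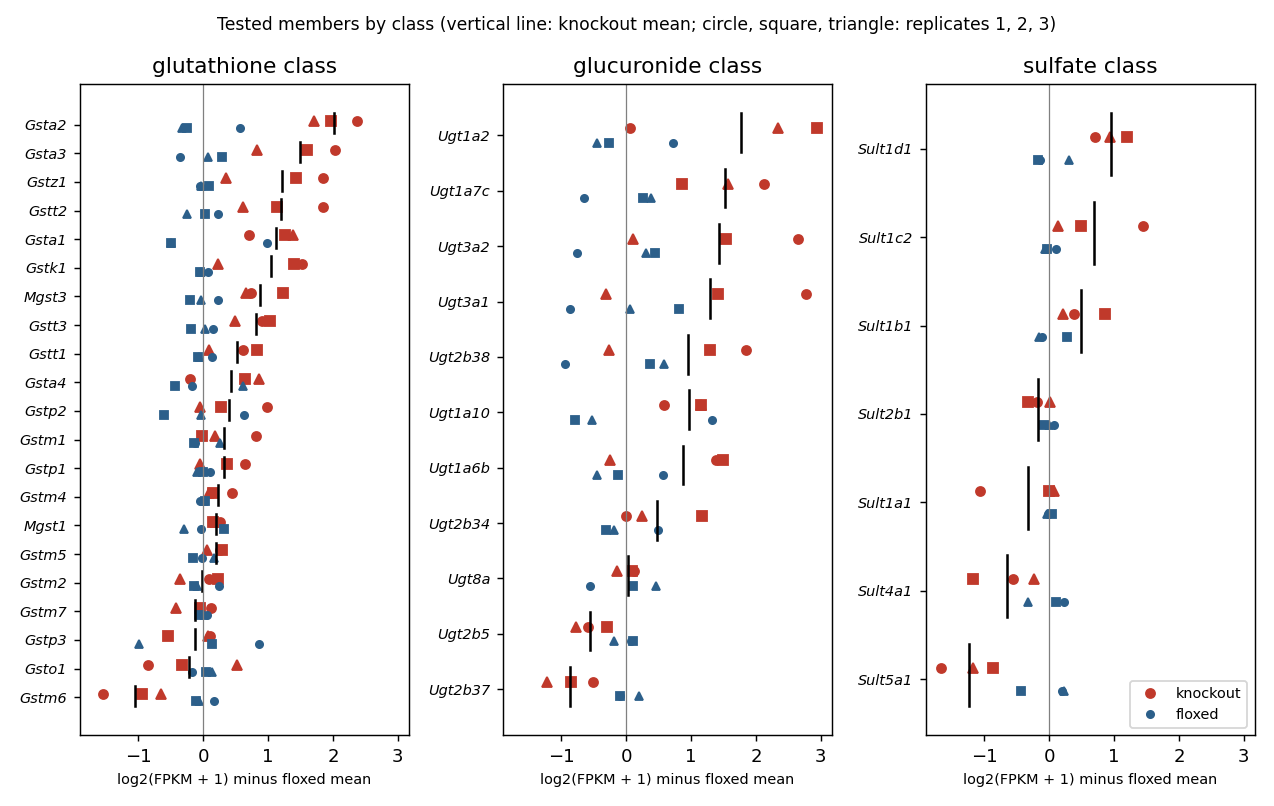
Each of the 39 tested members is a row in the panel of its class, and the horizontal axis gives log2(FPKM + 1) minus the mean of the floxed libraries. Red symbols are knockout libraries, blue symbols floxed libraries, and the vertical line is the knockout mean. The alpha and theta glutathione genes lie to the right, Gstm6, Ugt2b37, Ugt2b5 and Sult5a1 lie to the left, and the triangle (knockout replicate 3) often lies nearest to 0.

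The glutathione class made up most of the module. Its FPKM summed to 2445, 2038 and 1707 in knockout replicates 1, 2 and 3, against 1368, 1266 and 1308 in floxed replicates 1, 2 and 3. All 3 knockout sums were above all 3 floxed sums. Gstp1, Gstm1 and Gsta2 stood highest, at ranks 248, 263 and 304 of the 18849 genes by mean FPKM. Their order differed between the groups: Gsta2 took 17.5% ± 0.999 of the class sum in knockout kidneys and 6.87% ± 2.31 in floxed kidneys (SD, n = 3 each). Gstp1 took 14.4% ± 1.01 in knockout and 17.9% ± 0.989 in floxed kidneys, and Gstm1 13.6% ± 2.68 in knockout and 16.7% ± 2.83 in floxed kidneys.

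Alpha transferases, which conjugate lipid peroxidation products and reduce organic peroxides, differed most within the class. Gsta2 (Entrez 14858) read 455.26, 345.13 and 287.5 FPKM in knockout replicates 1, 2 and 3, against 130.23, 73.12 and 69.44 FPKM in floxed replicates 1, 2 and 3. Even the lowest knockout library was more than the highest floxed one, and floxed replicate 1 was the highest of its group. The 3.99-fold difference in means was a log2 fold change of 2.02 (SE 0.283, limma adjusted p = 0.0547), and the gene passed without knockout replicate 3 (limma adjusted p = 0.00674). Gsta3, known in mice for conjugating aflatoxin epoxide, read 56.01, 41.47 and 23.76 FPKM in knockout and 9.85, 16.04 and 13.69 FPKM in floxed libraries. The groups did not overlap, and the knockout mean was 3.06-fold higher (log2 1.49, SE 0.319, limma adjusted p = 0.0719, or 0.00563 without knockout replicate 3). Gsta4, which handles 4-hydroxynonenal, read 27.1, 49.15 and 57.31 FPKM in knockout and 27.49, 22.81 and 48.25 FPKM in floxed libraries. Its groups overlapped (limma adjusted p = 0.459), and knockout replicate 3 was the highest of all. Gsta1 stayed at 1.3, 2.38 and 2.65 FPKM in knockout and 1.77, 0 and 0 FPKM in floxed libraries. Of its 50-base transcript windows in GENCODE, 82.9% also occur in Gm3776 and 44.6% in Gsta2, and 32.9% of those of Gsta2 occur in Gsta1. The division of fragments between these paralogs is therefore uncertain.

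Theta, zeta and kappa genes formed a second group with higher knockout values. Gstt2, a theta enzyme that acts on small halogenated and sulfate-bearing compounds, read 249.43, 150.77 and 105.3 FPKM in knockout and 80.01, 69.46 and 57.3 FPKM in floxed libraries. Its groups did not overlap (2.44-fold, log2 1.20, SE 0.308, limma adjusted p = 0.0944, or 0.0107 without knockout replicate 3). Gstt3 read 39.57, 43.14 and 29.59 FPKM in knockout and 23.2, 18.01 and 21.16 FPKM in floxed libraries, again without overlap (limma adjusted p = 0.0715, or 0.00705 without knockout replicate 3). Gstt1 averaged 115 ± 28.8 FPKM in knockout and 78.9 ± 6.70 FPKM in floxed libraries (limma adjusted p = 0.178, or 0.0112 without knockout replicate 3). Knockout replicate 3 at 84.19 FPKM lay within the floxed range of 74.62 to 86.61. Gstz1, the maleylacetoacetate isomerase of tyrosine breakdown, read 157.15, 117.81 and 55.1 FPKM in knockout and 41.42, 45.61 and 42.1 FPKM in floxed libraries. Knockout replicate 3 exceeded the floxed libraries by far less than the other 2 did (2.56-fold in means, limma adjusted p = 0.114, or 0.00347 without that library). Gstk1, an enzyme of mitochondria and peroxisomes, showed the same shape, with 50.81, 46.54 and 20 FPKM in knockout and 18.05, 16.38 and 16.63 FPKM in floxed libraries (limma adjusted p = 0.128, or 0.00294 without knockout replicate 3).

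Membrane-bound transferases belong to another protein family that also makes leukotriene C4. Mgst3 read 73.65, 104.54 and 70.12 FPKM in knockout and 51.86, 37.96 and 43.04 FPKM in floxed libraries, with no overlap (1.87-fold, log2 0.88, SE 0.193, limma adjusted p = 0.0740, or 0.0185 without knockout replicate 3). Mgst1, which protects membranes of the endoplasmic reticulum and mitochondria, read 155 ± 5.31 FPKM in knockout and 137 ± 30.0 FPKM in floxed libraries (limma adjusted p = 0.487).

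Among the tested mu, pi and omega genes, which included Gstp1 and Gstm1 as well as low genes, the groups overlapped for all but Gstm4 and Gstm6. Gstm1, the main mu enzyme, read 384.75, 215.68 and 246.11 FPKM in knockout and 200.61, 197.52 and 261.08 FPKM in floxed libraries, and only knockout replicate 1 lay above the floxed range (limma adjusted p = 0.418). Gstp1, a pi enzyme that also binds stress kinases, averaged 299 ± 70.8 FPKM in knockout and 235 ± 17.0 FPKM in floxed libraries (limma adjusted p = 0.334, or 0.0366 without knockout replicate 3). Its neighbour Gstp2 shares 481 of 943 Gstp1 windows (51.0%) and averaged 5.85 ± 2.62 FPKM in knockout and 4.27 ± 2.25 FPKM in floxed libraries. Gstm5 read 172.93, 176.43 and 149.47 FPKM in knockout and 142.85, 129.7 and 161.57 FPKM in floxed libraries, while Gstm2 averaged 37.2 ± 7.64 FPKM in knockout and 37.3 ± 5.64 FPKM in floxed libraries. Gsto1, the omega enzyme that reduces dehydroascorbate, read 53.59, 77.94 and 141.23 FPKM in knockout and 86.55, 100.43 and 107.71 FPKM in floxed libraries. Its knockout libraries lay on both sides of the floxed range (limma adjusted p = 0.687). Gstm6 differed in the direction opposite to the alpha genes, with 1.93, 3.48 and 4.47 FPKM in knockout and 8.65, 6.99 and 7.21 FPKM in floxed libraries. It was 2.31-fold higher in floxed kidneys by means and the groups did not overlap (log2 -1.05, SE 0.241, limma adjusted p = 0.0798, or 0.0129 without knockout replicate 3). The low genes Gstm7 and Gstp3 averaged 3.56 ± 0.855 and 3.02 ± 0.937 FPKM in knockout and 3.89 ± 0.196 and 3.88 ± 2.82 FPKM in floxed libraries. Gstm4 averaged 11.9 ± 1.79 FPKM in knockout and 9.96 ± 0.344 FPKM in floxed libraries and did not overlap either, at a limma adjusted p of 0.321.

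**Figure D2:**
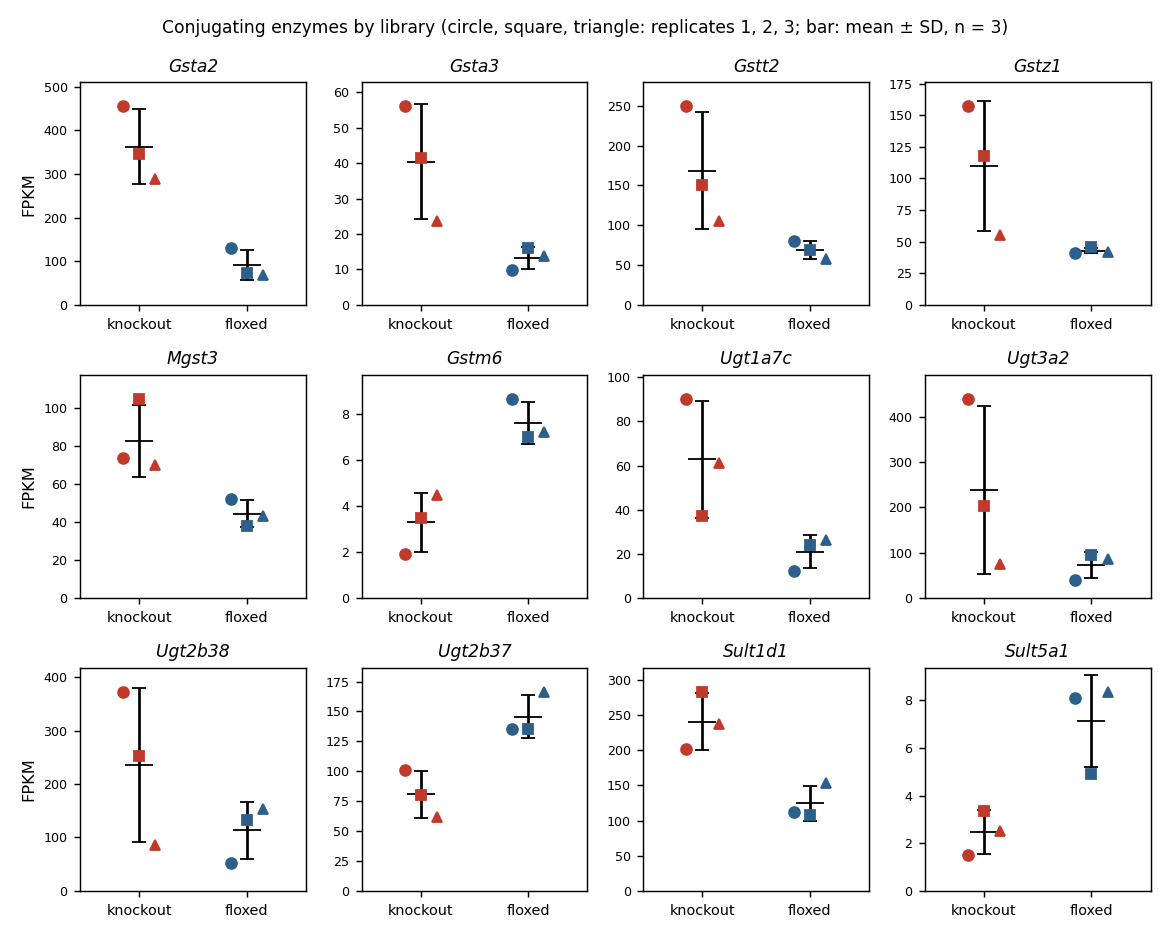
Points are FPKM in single libraries for 12 members, knockout in red on the left and floxed in blue on the right, on linear axes that start at 0, with mean ± SD (n = 3). Gsta2, Gsta3, Gstt2, Gstz1, Mgst3, Ugt1a7c and Sult1d1 have all knockout points above the floxed ones, Gstm6, Ugt2b37 and Sult5a1 have all below, and Ugt3a2 and Ugt2b38 overlap.

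Ugt genes summed to 1190, 726 and 350 FPKM in knockout replicates 1, 2 and 3, against 317, 466 and 501 FPKM in floxed replicates 1, 2 and 3. The sums overlapped, since knockout replicate 3 lay within the floxed range. Most of the sum came from Ugt2b38, Ugt3a2 and Ugt2b37. Ugt2b37 took 12.3% ± 4.66 of it in knockout and 35.0% ± 7.02 in floxed kidneys.

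The Ugt2b family, known for glucuronidating steroids and bile acids, held genes on both sides. Ugt2b38 read 372.46, 251.98 and 85.32 FPKM in knockout and 52.63, 132.75 and 154.08 FPKM in floxed libraries. Its groups overlapped, with floxed replicate 1 the lowest library of all and knockout replicate 3 within the floxed range (log2 0.96, SE 0.610, limma adjusted p = 0.351). Ugt2b37 read 100.95, 79.9 and 61.38 FPKM in knockout and 135.59, 135.37 and 166.26 FPKM in floxed libraries. Every knockout library was below every floxed one, and here knockout replicate 3 lay farthest from the floxed libraries (log2 -0.87, SE 0.199, limma adjusted p = 0.0798, or 0.0254 without that library). Ugt2b5 read 6.89, 8.64 and 5.97 FPKM in knockout and 11.49, 11.78 and 9.43 FPKM in floxed libraries, also with no overlap (limma adjusted p = 0.117). Within a library, Ugt2b38 was 3.69, 3.15 and 1.39 times Ugt2b37 in knockout replicates 1, 2 and 3, and 0.388, 0.981 and 0.927 times Ugt2b37 in floxed replicates 1, 2 and 3. Ugt2b38 thus exceeded Ugt2b37 in all knockout libraries and in no floxed library. The ratio was chosen after its values were seen and carries no test. Of the 50-base windows of each of these transcripts, 11.5% occur in the other one, and 34.1% of those of Ugt2b38 occur in Ugt2b5, so fragments from the shared parts cannot be assigned. Ugt2b34 averaged 7.46 ± 3.86 FPKM in knockout and 4.91 ± 1.87 FPKM in floxed libraries.

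Ugt1a transcripts come from alternative first exons joined to a common set of later exons, and between 54.2% and 96.0% of the windows of each occur in another gene. Values of single Ugt1a genes are therefore uncertain, and the sum over the 8 is given beside them. How fragments from the common exons were counted is not known, so the sum may be uncertain too. That sum was 150, 115 and 92.1 FPKM in knockout replicates 1, 2 and 3, against 51.5, 44.9 and 43.8 FPKM in floxed replicates 1, 2 and 3. All knockout sums exceeded all floxed sums, and the ratio of means was 2.55. Ugt1a7c read 90.11, 37.09 and 61.25 FPKM in knockout and 12.34, 24.09 and 26.38 FPKM in floxed libraries, without overlap (log2 1.52, SE 0.383, limma adjusted p = 0.0929). Ugt1a6b read 55.32, 59.96 and 17.27 FPKM in knockout and 31.04, 18.9 and 14.91 FPKM in floxed libraries, where knockout replicate 3 lay inside the floxed range (limma adjusted p = 0.299, or 0.0187 without it). Ugt1a2 read 0.74, 11.78 and 7.44 FPKM in knockout and 1.75, 0.39 and 0.22 FPKM in floxed libraries, and Ugt1a10 2.63, 4.41 and 4.38 FPKM in knockout and 5.04, 0.4 and 0.68 FPKM in floxed libraries. Both overlapped through floxed replicate 1 (limma adjusted p = 0.196 and 0.298).

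Ugt3a enzymes use sugars other than glucuronate in humans, and their role in mice is less clear. Ugt3a2 read 438.68, 202.22 and 73.77 FPKM in knockout and 40.3, 94.41 and 85.35 FPKM in floxed libraries. Ugt3a1 read 97.74, 37.45 and 10.7 FPKM in knockout and 6.95, 24.29 and 13.99 FPKM in floxed libraries. For both genes knockout replicates 1 and 2 lay above the floxed range and replicate 3 within it (limma adjusted p = 0.220 and 0.327, or 0.0248 and 0.0456 without replicate 3). Ugt8a, which makes galactosylceramide, averaged 16.7 ± 1.75 FPKM in knockout and 17.1 ± 6.04 FPKM in floxed libraries.

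**Figure D3:**
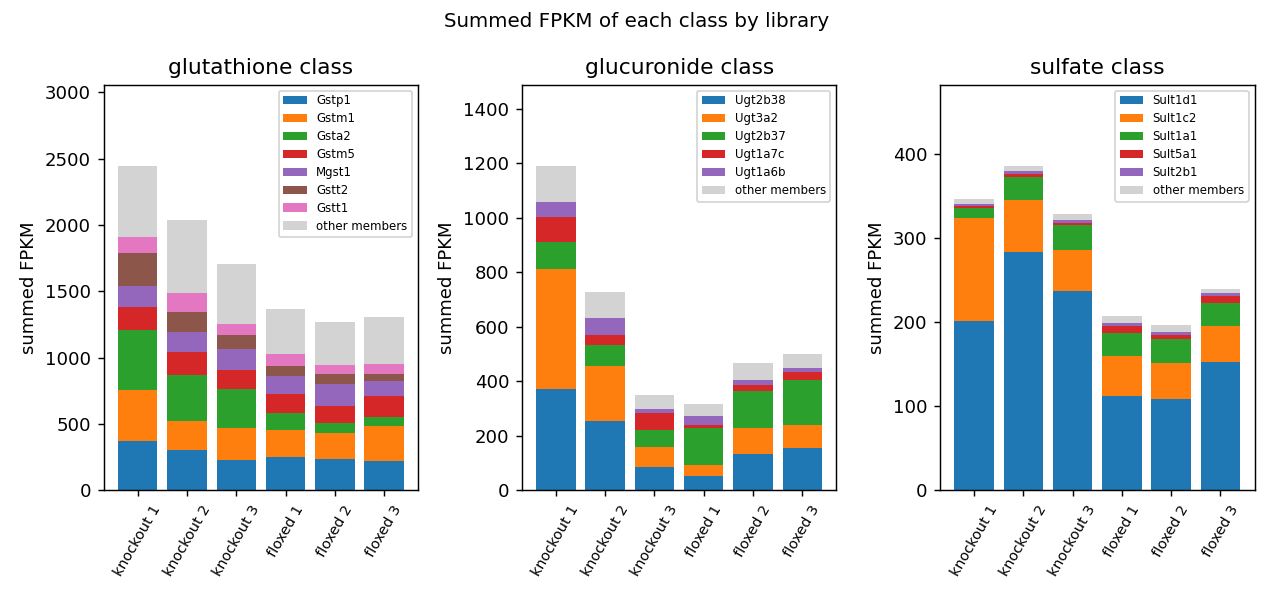
Stacked bars give the summed FPKM of each class in each library, knockout on the left and floxed on the right, coloured by the members with the highest means. The glutathione and sulfate sums are higher in all 3 knockout libraries (1707 to 2445 against 1266 to 1368, and 328 to 385 against 196 to 239), while the Ugt sums overlap.

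Sult genes summed to 346, 385 and 328 FPKM in knockout replicates 1, 2 and 3, against 206, 196 and 239 FPKM in floxed replicates 1, 2 and 3. Here the 3 knockout libraries were alike and none overlapped the floxed ones. Most of the sum came from 1 gene. Sult1d1, which sulfates catecholamines and is known from mouse kidney, took 67.9% ± 8.45 of the sum in knockout and 57.8% ± 5.31 in floxed kidneys. It read 201.33, 282.56 and 237.02 FPKM in knockout and 111.85, 108.34 and 152.78 FPKM in floxed libraries, a 1.93-fold difference (log2 0.95, SE 0.191, limma adjusted p = 0.0651, or 0.0253 without knockout replicate 3). Sult1c2 read 121.68, 62.52 and 48.74 FPKM in knockout and 47.59, 42.93 and 42.09 FPKM in floxed libraries. Its groups did not overlap, but replicate 3 was only just above the floxed range (limma adjusted p = 0.224, or 0.0469 without it). Sult1b1, which sulfates thyroid hormone, averaged 3.47 ± 1.08 FPKM in knockout and 2.17 ± 0.534 FPKM in floxed libraries. The phenol sulfotransferase Sult1a1 read 12.68, 27.69 and 29.24 FPKM in knockout and 27.39, 28.68 and 27.05 FPKM in floxed libraries, where knockout replicate 1 alone was low (limma adjusted p = 0.496).

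Of the 4 tested Sult genes with a log2 fold change below 0, all but Sult1a1 were of low level. Sult5a1, a member with no established substrate, read 1.5, 3.36 and 2.51 FPKM in knockout and 8.11, 4.92 and 8.34 FPKM in floxed libraries. All knockout libraries were below all floxed libraries (log2 -1.24, SE 0.267, limma adjusted p = 0.0723, or 0.0341 without knockout replicate 3). Sult4a1, known from neurons, averaged 2.33 ± 1.03 FPKM in knockout and 4.13 ± 0.981 FPKM in floxed libraries (limma adjusted p = 0.199). Sult2b1, which sulfates cholesterol, averaged 3.34 ± 0.530 FPKM in knockout and 3.86 ± 0.245 FPKM in floxed libraries, and Sult6b1 was untested at up to 0.52 FPKM.

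Enzymes that supply the groups to be joined were read beside the members, from lists chosen by role. Of 11 tested genes of sulfate activation and transport, 3 were higher at an unadjusted limma p under 0.05 (8.38% of all genes) and 0 were lower (16.3% of all genes). Slc13a4, 1 of the 3, read 1.5, 2.45 and 1.52 FPKM in knockout and 0.66, 0.81 and 0.55 FPKM in floxed libraries. Its passing of the filter therefore leaned on the knockout group. With a mean of at least 5 FPKM the higher count was 2. Papss2, which makes PAPS, read 106.59, 80.69 and 45.73 FPKM in knockout and 23.86, 26.92 and 26.84 FPKM in floxed libraries, and the sulfate carrier Slc26a1 37.64, 26.03 and 18.47 FPKM in knockout and 10.83, 8.77 and 7.86 FPKM in floxed libraries. Neither gene overlapped between the groups, and neither passed (limma adjusted p = 0.0635 and 0.0547). The other PAPS synthase, Papss1, averaged 37.5 ± 7.29 FPKM in knockout and 34.6 ± 3.93 FPKM in floxed libraries. Of 13 glutathione supply genes 4 were higher and 1 was lower at that unadjusted p, with 2 higher without floxed replicate 1 and 9 without knockout replicate 3. Gclc, the catalytic subunit of the first step of glutathione synthesis, averaged 93.7 ± 17.4 FPKM in knockout and 55.9 ± 6.16 FPKM in floxed libraries, and Oplah, which returns 5-oxoproline to glutamate, 59.0 ± 5.91 and 30.8 ± 3.67 FPKM. Of 10 genes of UDP-glucuronate supply 5 were higher (1 without floxed replicate 2, and 3 without floxed replicate 1 or knockout replicate 1) and 2 lower, and the lower ones included Gusb, the lysosomal enzyme that removes glucuronate (24.9 ± 6.85 FPKM in knockout and 39.1 ± 1.04 FPKM in floxed libraries). Of 16 NRF2-related genes 2 were higher, Nqo1 and Gclc, and 0 lower. Nqo1 averaged 31.9 ± 11.6 FPKM in knockout and 10.1 ± 0.665 FPKM in floxed libraries, without overlap (limma adjusted p = 0.0547). Hmox1 averaged 27.7 ± 9.29 FPKM in knockout and 44.0 ± 11.9 FPKM in floxed libraries, and its groups overlapped (limma adjusted p = 0.225). Of 9 exporters and carriers of conjugates 5 were higher and 1 lower, with 2 higher without floxed replicate 1 and 3 without knockout replicate 1 or 2. The lower one was Abcc5, which had the smallest p of the list. It read 13.04, 14.38 and 13.15 FPKM in knockout and 23.68, 20.02 and 22.63 FPKM in floxed libraries, without overlap (limma adjusted p = 0.0547). Slc22a8, the organic anion carrier, read 100.2, 108.42 and 12.84 FPKM in knockout and 5.3, 5.62 and 4.65 FPKM in floxed libraries, and Abcc2, which pumps conjugates into urine, 26.03, 23.74 and 18.8 FPKM in knockout and 12.06, 12.8 and 17.15 FPKM in floxed libraries. Slc22a8 is also in the proximal tubule list below, so that list and this one are not separate observations. No gene of these 5 lists passed after adjustment over all genes.

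**Figure D4:**
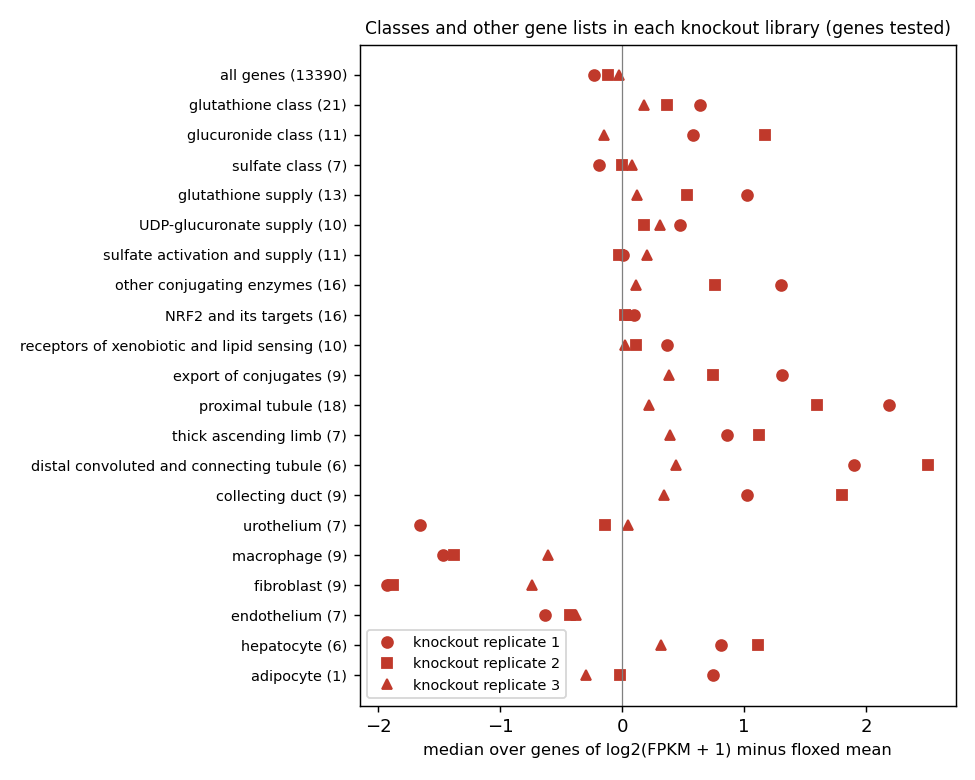
Each row is a gene class or list, with the number of genes tested in brackets, and each symbol is 1 knockout library at the median over genes of log2(FPKM + 1) minus the floxed mean. Proximal tubule genes stand at 2.19, 1.60 and 0.22 and glutathione enzymes at 0.64, 0.37 and 0.18 in knockout replicates 1, 2 and 3, while macrophage and fibroblast genes stand below 0 in all 3.

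Markers of kidney cell types differed between the groups too. At an unadjusted limma p under 0.05, 8.38% of all genes were higher and 16.3% lower, the shares to set beside the counts below. Of 18 proximal tubule genes 11 were higher and 0 lower at an unadjusted limma p under 0.05, with list medians of 2.19, 1.60 and 0.22 in knockout replicates 1, 2 and 3. Their summed level was 5601 to 45670 FPKM in knockout and 5759 to 14869 FPKM in floxed libraries, dominated by Kap, and 8317, 6450 and 2196 FPKM in knockout and 1376, 1921 and 1996 FPKM in floxed libraries without Kap. The phosphate carrier Slc34a1 read 1562.88, 1463.95 and 324.67 FPKM in knockout and 250.59, 367.58 and 398.78 FPKM in floxed libraries, with replicate 3 inside the floxed range. For 7 of the 18 genes all knockout libraries were above all floxed ones, against 10.0% of all genes. All 9 macrophage genes were lower (695 to 1331 FPKM summed in knockout and 1754 to 2576 in floxed libraries), and so were 7 of 9 fibroblast genes (104 to 353 and 550 to 693 FPKM summed). In each of these lists 1 gene passed over all genes as lower, Ms4a7 among the macrophage genes and Dpt among the fibroblast genes (limma adjusted p = 0.0446 for each). In whole-kidney RNA, fewer cells of a type and less RNA per cell cannot be told apart. The part of cell composition in the values of the conjugating enzymes was not tested. Tubule segments beyond the proximal tubule were also higher at the unadjusted p, with 5 of 7 thick ascending limb genes, 3 of 6 distal convoluted and connecting tubule genes and 6 of 9 collecting duct genes, and 0 lower in each. Leaving out 1 library moved these higher counts to 6 to 16 for the proximal tubule, 2 to 6 for the thick ascending limb, 2 to 5 for the distal convoluted and connecting tubule and 1 to 8 for the collecting duct, each highest without knockout replicate 3. The proximal tubule count was lowest without floxed replicate 1 and the collecting duct count without floxed replicate 3. Slc4a1, 1 of the 6 collecting duct genes, read 3.46, 9.41 and 0.96 FPKM in knockout and 1.04, 0.3 and 0.39 FPKM in floxed libraries. Its passing of the filter leaned on the knockout group. The collecting duct count was 5 with no filter on low values or with a mean of at least 5 FPKM. Cdh16, whose promoter drives the Cre, averaged 321 ± 61.0 FPKM in knockout and 216 ± 17.3 FPKM in floxed libraries (limma adjusted p = 0.118). Of 7 endothelial genes 0 were higher and 2 lower (1 to 6 lower on leaving out 1 library, the most without floxed replicate 2), of 7 urothelial genes 0 in either direction, and of the 1 tested adipocyte gene 0. Of 6 tested hepatocyte-list genes 3 were higher (1 to 4 on leaving out 1 library) and 0 lower. The list summed to 331 to 1074 FPKM in knockout and 204 to 276 FPKM in floxed libraries. The 3 higher genes were Cyp2e1, Ttr and Serpina1a. They averaged 559 ± 366, 100 ± 101 and 75.1 ± 21.9 FPKM in knockout and 171 ± 38.3, 12.8 ± 5.78 and 35.1 ± 17.1 FPKM in floxed libraries. Alb stayed at or under 2.14 FPKM, Apoa1 at or under 0.74 FPKM and Cps1 at or under 0.01 FPKM.

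Over all 39 tested members, knockout replicates 1, 2 and 3 lay above the floxed range for 22, 23 and 16 genes, or 56.4%, 59.0% and 41.0%, against 24.0%, 24.2% and 25.5% of all genes. These counts include Gsta1, Ugt1a10 and Ugt1a2, whose passing of the filter leaned on the knockout group. In the Ugt class they were 5, 7 and 2 of 11, and those of knockout replicate 3 were Ugt1a7c and Ugt1a2. Gsta1 lay above the floxed range in knockout replicates 2 and 3. The glutathione class had 14, 13 and 11 of 21, and the Sult class 3 of 7 in each library. Below the floxed range lay 8, 7 and 6 of the 39 members, or 20.5%, 17.9% and 15.4%. Of all genes 57.1%, 47.1% and 32.4% lay below it. The Sult class had 4, 3 and 1 of 7 below, the glutathione class 2, 2 and 3 of 21, and the Ugt class 2 of 11 in each library.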

How the data were processed

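The authors deposited 1 FPKM value per gene and library, with 2 decimals, as the file header and the values show. Reads were placed on mm9, per the submitters' processing notes. Which aligner, counter, annotation and filters were used, and whether strand was used, is not given in the sources used here. RNA was extracted with TRIzol, per the labels' protocols. Groups and replicate numbers came from the sample titles. The 26 symbols stored as calendar dates were recovered through their Entrez identifiers. Depth was estimated from low FPKM values of genes with 1 GENCODE M21 transcript of 300 to 2000 nucleotides: of 164 to 211 such values per library, 61.0% to 68.5% were whole fragment numbers to within 0.2, where even spreading gives 40%, and 1 FPKM in 2 kb then stands for 31.7 to 36.0 fragments.

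Values were converted to log2(FPKM + 1) for the 13390 genes with at least 1 FPKM in at least 3 libraries. Groups were compared with limma (version 3.58.1, R 4.3.3), using a mean-variance trend and no covariate, with two-sided p-values adjusted by Benjamini-Hochberg over all genes and a threshold of 0.05. The fit was tested on simulated data. Tables and plots were made with Python 3.11.15, pandas 2.3.3, scipy 1.17.1, biopython 1.88 and matplotlib 3.10.9. Windows of 50 bases were compared over all GENCODE M21 transcripts. The alternatives were another pseudocount, other filters, other scalings, no trend, a replicate block and leaving out each library.

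The members, lists and alternatives were chosen with earlier results of these data known. Members named are the 4 markers Gsta2, Gsta3, Gstm1 and Ugt2b38, the 8 with the highest mean FPKM in each class, up to 5 with the smallest p per class and direction, and the 6 untested ones with the highest value. Other genes named are Abl1, Cdh16 and up to 4 with the smallest p per list. Gsta1, Gsta4, Gstk1, Gstz1, Gstm4, Gstp2, Ugt2b34, Papss1, Slc34a1, Kap, Apoa1 and Cps1 were named in addition, after their values were seen. Sts, Nat8b and Lep were not analysed here. Some planned items are not reported here.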

Additional observations from a re-analysis of the deposited data

How the results depend on the processing

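No member passed the limma test over all genes under any of the 8 alternatives with all libraries or without any other single library, and 17 passed without knockout replicate 3 (0 to 17 across the leave-one-out fits). Over all genes 9 passed as reported, 0 to 13 without any other library and 3271 without knockout replicate 3. The counts that follow are at an unadjusted p under 0.05. The glutathione class had 8 or 9 higher members and 1 lower one under the scalings and the replicate block. The Sult class was the least stable. Its lower count of 2 became 1 with a pseudocount of 0.1, no filter, median-ratio scaling, quantile scaling or the replicate block, and 0 with a mean of at least 5 FPKM. Its higher count of 1 became 2 with median-ratio or quantile scaling and 3 with the replicate block. Its median log2 fold change of -0.17 became -0.01 without a filter, 0.69 with a mean of at least 5 FPKM (which removes its low members) and 0.07 with quantile scaling. The Ugt higher count of 2 became 1 with no filter or a mean of at least 5 FPKM, its lower count became 1 with quantile scaling, and its median of 0.96 became 0.06 without a filter, which adds its low members. The cause of the other shifts was not tested. Leaving out 1 library gave 6 to 9 higher and 1 to 2 lower glutathione members with a median of 0.17 to 0.51, 1 to 5 higher Ugt members with a median of 0.62 to 1.44, 1 to 3 higher and 1 to 2 lower Sult members, and a Sult median of -0.26 to 0.04.

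Members with small differences changed sign. With median-ratio scaling Gstm2 stood at 0.14, Gstm7 at 0.01 and Gstp3 at 0.00, with quantile scaling Gstm7 at 0.12, Gstp3 at 0.11 and Sult2b1 at 0.07, and with TPM scaling Ugt8a at -0.03 (log2 fold changes). Leaving out 1 library moved the log2 fold change of Gstm2 between -0.13 and 0.16, Gstm7 between -0.24 and 0.03, Gsto1 between -0.59 and 0.10, Gstp3 between -0.62 and 0.31, Sult1a1 between -0.53 and 0.04 and Ugt8a between -0.26 and 0.25. Deviations of same-numbered libraries from their group means correlated at -0.126, -0.07 and 0.034, and those of differently numbered ones at -0.122 to 0.135. No shared deviation was seen, but with 3 libraries per group this cannot show whether the libraries were paired. With the replicate block 2 genes of the whole table passed, and 0 members. Depth limits the members near 1 FPKM, where a value rests on about 31.7 to 36.0 fragments in a transcript of 2 kb.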

Other observations

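Nuclear receptors and factors that are known to act on genes of this kind were read from a list of 11, of which 10 were tested. At an unadjusted limma p under 0.05, 4 were higher and 1 was lower in the knockout libraries, against 8.38% and 16.3% of all genes. Leaving out 1 library gave 2 to 3 higher and 0 to 3 lower, with 3 of each without floxed replicate 1 or knockout replicate 3, and the replicate block gave 2 higher and 3 lower. The bile acid receptor Nr1h4 read 74.07, 86.41 and 61.5 FPKM in knockout and 34.21, 43.3 and 42.69 FPKM in floxed libraries, and Ppara, the receptor for fatty acids, 14.8, 16.4 and 9.78 FPKM in knockout and 3.72, 6.32 and 5.21 FPKM in floxed libraries. Neither of these genes overlapped between the groups, and neither passed over all genes (limma adjusted p = 0.0633 and 0.0627). Ahr, the receptor for dioxins, was at 2.01, 3.05 and 4.63 FPKM in knockout and 5.35, 5.61 and 5.8 FPKM in floxed libraries (limma adjusted p = 0.142).

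Of 16 other conjugating enzymes tested, 7 were higher and 1 was lower at an unadjusted limma p under 0.05, against 8.38% and 16.3% of all genes. The higher count was 4 without knockout replicate 2 and 11 without knockout replicate 3. Nat8, which acetylates cysteine conjugates and so completes the path that starts with glutathione, read 147.43, 174.62 and 65.09 FPKM in knockout and 46.39, 47.11 and 43.61 FPKM in floxed libraries. Tpmt, which methylates thiopurines, averaged 39.4 ± 12.2 FPKM in knockout and 22.1 ± 2.50 FPKM in floxed libraries. The lower gene was the nicotinamide methyltransferase Nnmt, at 4.06, 2.57 and 5.16 FPKM in knockout and 9.72, 9.7 and 13.61 FPKM in floxed libraries (limma adjusted p = 0.0578). The groups did not overlap for Nat8, Tpmt or Nnmt, and none of the 3 passed over all genes.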
